A study of Arabidopsis thaliana with 12 samples.

Results

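The genes described here are those whose transcripts were at least 4 times lower after 3 weeks at 4 °C than at 22 °C in Arabidopsis thaliana rosettes, both in wild-type plants and in the mutant sid2-1. They were chosen from the group means of log2 signals, by a difference of -2 or lower (4 °C minus 22 °C) in each genotype. Of 22746 tested probe sets, 147 met this rule, and 7 of them (for SWEET17, MSRB6, AT1G73600, PGRL1B, LHCB4.3, EXPA8 and DFR) were left out by name. The remaining 140 probe sets are the members. A probe set is a group of short array probes read as 1 value. Of the members, 65 are annotated to 1 gene each (65 loci), 6 to several genes, and 69 have no gene in the annotation used here. Single-gene probe sets make up 46.4% of the members and 59.4% of all tested probe sets. Since the same measurements chose the members, their differences between 4 °C and 22 °C are given as a description, with no test.

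Entire aerial parts were profiled from 4 groups of 3 samples labelled as biological replicates: Col-0 wild type and sid2-1, each grown at 22 °C only or with a further period at 4 °C. All plants grew in soil at 22 °C with a 12 h photoperiod for about 23 days, and those of the cold groups then spent 3 weeks at 4 °C with the same photoperiod. Harvest was 4 h after lights on, and each sample was hybridized to 1 Affymetrix array. The mutant sid2-1, in the Col-0 background, is defective in an isochorismate synthase on the route to salicylic acid. The plants at 4 °C were 3 weeks older than those at 22 °C, so temperature and age cannot be told apart. In whole shoots, fewer cells of a type and less RNA per cell cannot be told apart either. A bracketed mark on the labels of the warm wild-type samples is not explained, and the gene mutated in sid2-1 was not analysed here, so the genotype labels were not checked.

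Plants held in the cold but above freezing slow their growth, change membrane lipids and cell walls, accumulate sugars and induce protective proteins through the CBF transcription factors. This programme is called cold acclimation, and it includes lower transcript levels of many genes of growth and metabolism as well as the better known induced genes. Salicylic acid is a defence hormone that also restrains growth, and in Arabidopsis it accumulates during long cold exposure. The series compares wild type and sid2-1 at both temperatures, so the members can be followed with and without the isochorismate route.

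The 12 arrays had medians of 4.39 to 4.47 on the log2 scale, and replicate arrays correlated at 0.978 to 0.990 across probe sets. Values start at 2.2, the lowest value of the table, which holds 14.7% of all values and 0.298% of the members' values. Of 5 measured genes induced in cold acclimation, LTI30, COR27, COR15B and COR15A rose in both genotypes (limma adjusted p of 0.0314 or lower), and COR47 rose in sid2-1 (adjusted p = 0.0294) and was at 1.33 in wild type (adjusted p = 0.104). RCA, the Rubisco activase of green leaf cells, read 13.16 to 14.01 on all arrays. The root hair expansin gene EXPA7 stayed at 2.2 on all 12 arrays, and EXPA18 read at most 2.54. TUA1, the only measured gene of the flower and pollen markers, read 7.09 to 8.21, and the source of this signal was not tested. FMA, the only measured guard cell marker, read 3.15 to 4.38.

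At 22 °C the members were well above the typical probe set of the array, and at 4 °C many of them came close to it. Their median level was 8.02 in wild type and 8.31 in sid2-1 at 22 °C, against 4.85 and 5.39 at 4 °C. The median over all tested probe sets was 4.45 in wild type and 4.44 in sid2-1 at 22 °C, and 4.41 and 4.43 at 4 °C. A probe set can be lower by 2 only if it starts at 4.2 or above, so the high levels at 22 °C follow in part from the rule.

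The median difference of the members was -2.88 in wild type, with quartiles of -3.50 and -2.5. In sid2-1 it was -2.61, with quartiles of -2.97 and -2.24. Over all tested probe sets the median was 0.00 in both. A difference of -3 or lower was found for 62 members in wild type, 31 in sid2-1 and 27 in both. A difference of -4 or lower was found for 18, 6 and 4 members. Without any limit in the other genotype, 309 probe sets were at -2 or lower in wild type and 173 in sid2-1, the same 7 genes left out.

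**Figure D1:**
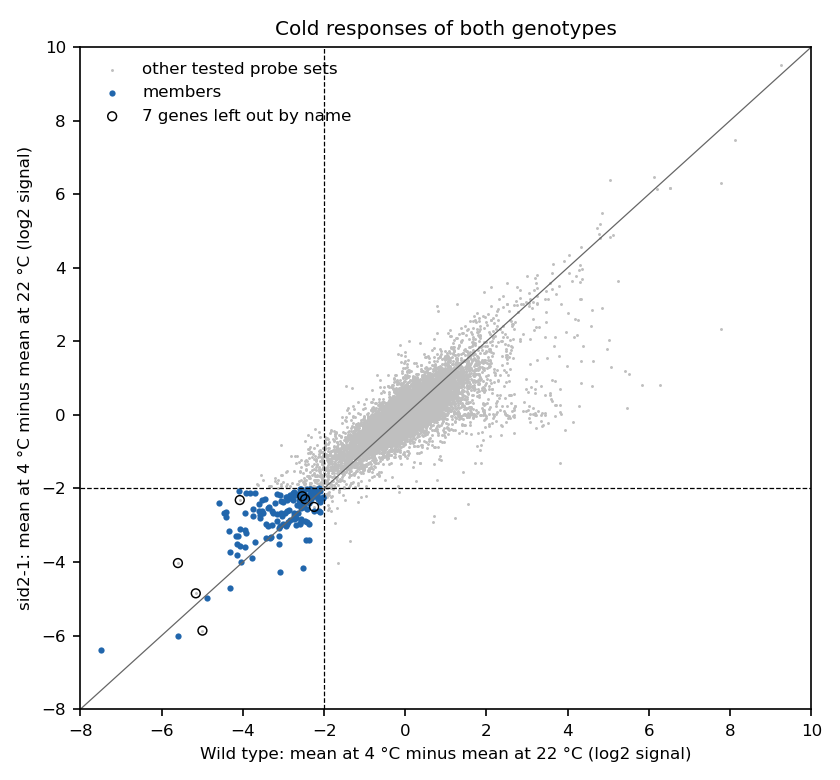
Difference between the means at 4 °C and 22 °C for each tested probe set, in wild type (x axis) and sid2-1 (y axis), in log2 signal. Blue points are the 140 members, rings the 7 genes left out by name, dashed lines the rule at -2 and the solid line equality. Members reach -7.48 in wild type and -6.38 in sid2-1.

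In wild type, 139 of the 140 members had all 3 arrays at 4 °C below all 3 at 22 °C, where 14.2% of all tested probe sets did. In sid2-1 the count was 137, against 11.1% of all, and in both genotypes it was 137, against 7.65% of all. The rule used these contrasts, so the counts describe the members' spread and nothing further is read from them. The exceptions were AT5G03230, AT4G01390 and a probe set with no gene here. That probe set, 254283_s_at, read 8.26, 9.82 and 9.84 in wild type at 22 °C and 8.95, 3.32 and 3.88 at 4 °C. In sid2-1 it read 9.51, 9.47 and 10.88 at 22 °C and 7.84, 11.49 and 4.17 at 4 °C. A single array at 4 °C thus stayed as high as the warm arrays in each genotype.

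The members varied more between replicates than the typical probe set did. The median SD of a member over 3 replicates was 0.480 in wild type and 0.414 in sid2-1 at 22 °C, and 0.414 and 0.458 at 4 °C. Over all tested probe sets, many of them near the lowest value, the median SD was 0.147, 0.144, 0.142 and 0.159 in the same order. Over the 12426 probe sets with a mean of 4 or more it was 0.250, 0.246, 0.248 and 0.280. Over 471 other probe sets lower by 1 to 2 in both genotypes it was 0.367, 0.325, 0.327 and 0.365, so a raised spread was not particular to the members. The median over the members on each array was 8.07, 7.77 and 8.41 in wild type at 22 °C and 8.42, 8.21 and 8.38 in sid2-1 at 22 °C. At 4 °C it was 5.06, 4.44 and 4.93 in wild type and 5.18, 5.49 and 5.41 in sid2-1. The second wild-type array at 4 °C was thus the lowest of the 12, with 33 of 140 members above their group mean, while 97 and 89 members were above it on the other two arrays of that group.

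**Figure D2:**
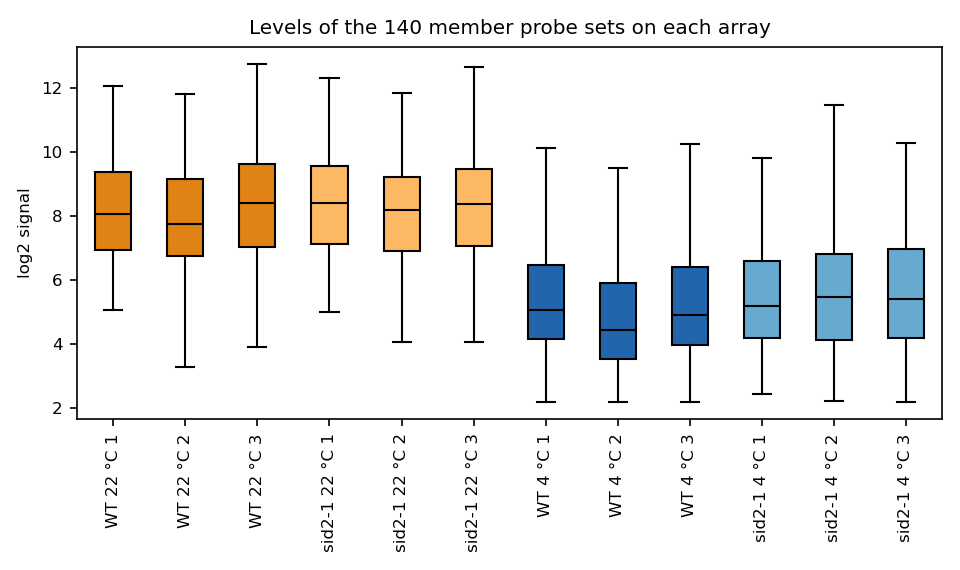
Levels of the 140 members on each of the 12 arrays, in log2 signal, with boxes from the lower to the upper quartile, lines at the median and whiskers to the lowest and highest member. Medians run from 7.77 to 8.42 at 22 °C and from 4.44 to 5.49 at 4 °C, lowest on the second wild-type array at 4 °C.

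Of the 65 single-gene members, 56 are named by locus only, and no role is given for those. The other 9, and AT2G31110 through its synonym TBL40, carry a descriptive name, and these 10 can be described by function. They are a small share of the members and stand for no theme of the set. TBL40, GH9C2, BGLU40, BGLU47 and ARD4 are described for their names alone, which was decided after their values were seen. Over the 10, differences ran from -3.81 to -2.36 in wild type and from -4.28 to -2.1 in sid2-1.

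Of the 10, CSLA01, GH9C2, TBL26 and TBL40 bear on cell wall polysaccharides. CSLA01 belongs to the cellulose synthase-like A family, whose members make mannan backbones. It read 6.88, 5.34 and 6.02 in wild type and 8.44, 7.01 and 6.78 in sid2-1 at 22 °C. At 4 °C it read 3.02, 3.00 and 2.94 in wild type and 3.13 on all 3 sid2-1 arrays. Every cold array was thus at a nearly constant low value, the difference being -3.09 ± 0.47 (SE, n = 3 against 3) in wild type and -4.28 ± 0.47 in sid2-1. Sizes at such recurring low values depend on the background correction.

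GH9C2 is a glycosyl hydrolase of family 9, the family of plant endoglucanases. It read 8.42, 7.71 and 8.23 in wild type at 22 °C and 5.09, 3.87 and 4.17 at 4 °C. In sid2-1 it read 8.53, 8.62 and 7.85 at 22 °C and 6.23, 6.01 and 5.09 at 4 °C. Cold and warm arrays did not overlap in either genotype, and its level at 4 °C was 13.4 times lower in wild type and 5.88 times lower in sid2-1.

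TBL26 and TBL40 belong to the TRICHOME BIREFRINGENCE-LIKE family, known for O-acetylation of cell wall polysaccharides. TBL26 read 9.06, 7.78 and 9.40 in wild type at 22 °C and 6.31, 4.03 and 4.46 at 4 °C. In sid2-1 it read 8.45, 8.05 and 9.02 at 22 °C and 6.62, 6.88 and 5.68 at 4 °C. Its first wild-type array at 4 °C lay nearer to the sid2-1 arrays than to the other two of its group. The differences were -3.81 ± 0.66 in wild type and -2.11 ± 0.66 in sid2-1.

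TBL40 was dimmer and its differences were closer to each other. It read 6.37, 7.14 and 6.83 in wild type at 22 °C and 4.21, 4.90 and 4.16 at 4 °C. In sid2-1 it read 6.19, 7.0 and 6.44 at 22 °C and 4.02, 4.59 and 4.60 at 4 °C. The second array was the highest of its group in wild type at both temperatures and in sid2-1 at 22 °C. The differences were -2.36 ± 0.31 and -2.14 ± 0.31.

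PMEAMT, an N-methyltransferase of phosphocholine synthesis and so of membrane lipid supply, was among the brightest members. It read 11.29, 10.61 and 11.43 in wild type and 11.10, 10.86 and 11.34 in sid2-1 at 22 °C. At 4 °C it read 7.80, 6.89 and 7.88 in wild type and 8.28, 8.40 and 8.45 in sid2-1. The cold levels stayed far above the lowest value, with a fold of 12.0 in wild type and 6.60 in sid2-1. The 3 sid2-1 arrays at 4 °C all lay above the 3 wild-type arrays at 4 °C.

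ARD4, an acireductone dioxygenase of methionine salvage, read 10.42, 10.63 and 11.58 in wild type at 22 °C and 7.96, 7.87 and 8.09 at 4 °C. In sid2-1 it read 10.65, 10.22 and 11.30 at 22 °C and 8.07, 8.38 and 8.77 at 4 °C. Methionine salvage recycles the methylthio group released in ethylene and polyamine synthesis. The differences of ARD4 were -2.90 ± 0.35 in wild type and -2.32 ± 0.35 in sid2-1.

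CYP71B26 is a cytochrome P450, a monooxygenase whose substrate is not given here. It read 10.05, 10.47 and 10.59 in wild type at 22 °C and 7.71, 7.51 and 7.70 at 4 °C. In sid2-1 it read 10.08, 9.67 and 9.97 at 22 °C and 7.62, 7.34 and 8.45 at 4 °C. The wild-type arrays were tightly grouped, and the differences were -2.73 ± 0.27 and -2.1 ± 0.27.

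TRY (TRIPTYCHON) encodes a small MYB protein that represses trichome fate in cells next to a developing trichome. It read 6.68, 5.97 and 6.95 in wild type and 6.60, 5.6 and 6.96 in sid2-1 at 22 °C. At 4 °C it read 4.03, 3.70 and 3.66 in wild type and 3.71, 3.56 and 3.67 in sid2-1. The difference was -2.74 ± 0.35 in both genotypes. TRY is also the only 1 of 3 trichome markers measured here, GL1 and GL2 having no probe set named here, and the part of trichome cells in its value was not tested.

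BGLU40 and BGLU47 belong to the beta-glucosidase family, which releases glucose from conjugates. BGLU40 read 8.76, 6.72 and 7.57 in wild type and 8.17, 7.93 and 7.92 in sid2-1 at 22 °C. At 4 °C it read 5.01, 4.23 and 4.89 in wild type and 6.13, 4.60 and 5.28 in sid2-1. Its folds were 7.85 in wild type and 6.36 in sid2-1, from warm arrays that were more scattered in wild type.

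BGLU47 was the dimmest of the named genes. It read 5.27, 4.19 and 6.91 in wild type and 6.38, 4.07 and 6.54 in sid2-1 at 22 °C. All 6 arrays at 4 °C read between 3.00 and 3.3, which is close to the lowest values of the table. Its second array at 22 °C was the lowest of the group in both genotypes.

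**Figure D3:**
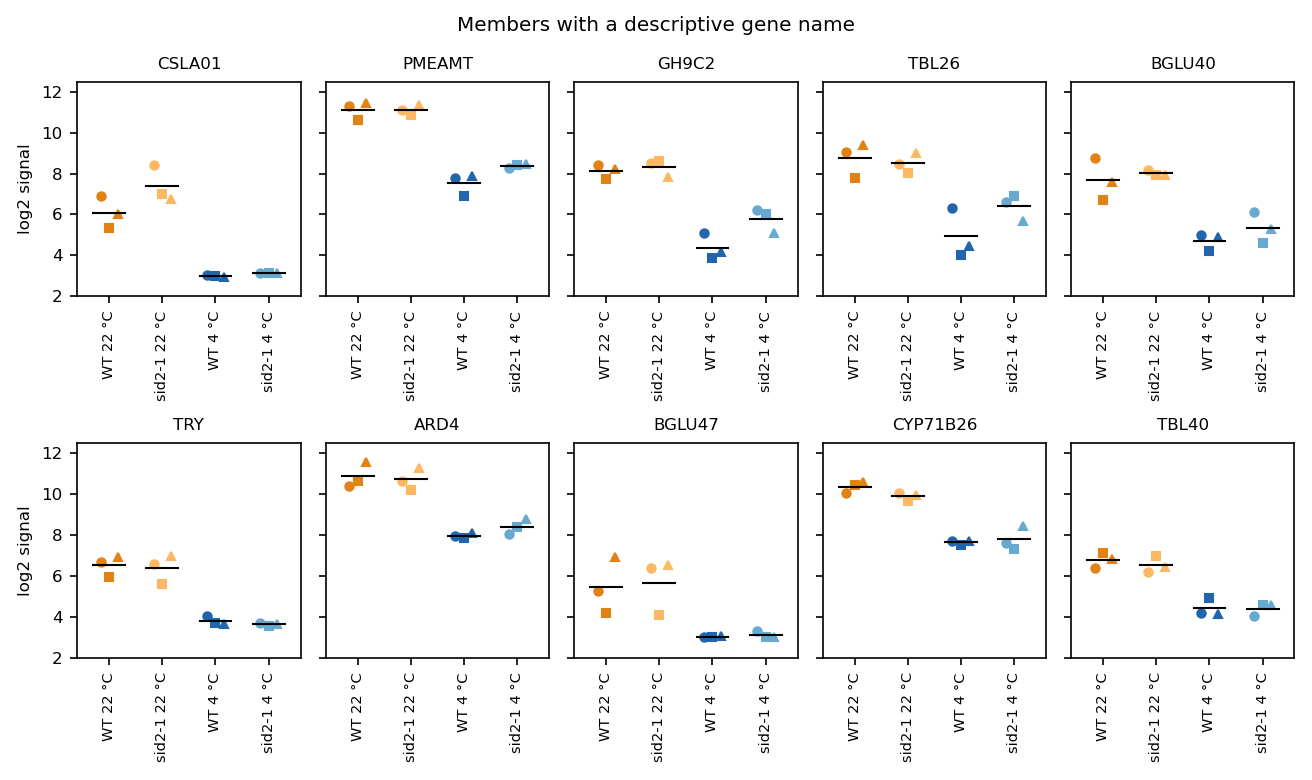
Log2 signal of the 10 members with a descriptive gene name on each array, by group, with circles, squares and triangles for replicates 1, 2 and 3 and lines at the group mean. Cold arrays lie below warm arrays of the same genotype in all 10 genes, and 8 of the 10 have a higher mean in sid2-1 than in wild type at 4 °C.

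The single-gene members with the lowest mean of both differences are mostly named by locus only. AT1G13650 came first. It read 9.84, 7.72 and 7.23 in wild type and 10.08, 9.62 and 8.37 in sid2-1 at 22 °C. At 4 °C it read 2.71, 2.72 and 2.60 in wild type and 3.46, 3.26 and 3.33 in sid2-1. The difference was -5.59 ± 0.65 in wild type, a fold of 48.1, and -6.01 ± 0.65 in sid2-1, a fold of 64.3. Its cold values lay close to the lowest value of the table, so both folds depend on the background correction.

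AT4G26790 and AT2G39850 also ended near the lowest values. AT4G26790 read 7.43, 6.70 and 7.93 in wild type at 22 °C and 2.76, 2.95 and 3.41 at 4 °C, and its fold was 19.9. In sid2-1 it read 6.67, 6.57 and 7.29 at 22 °C and 3.00, 3.42 and 2.92 at 4 °C, and its fold was 13.3. AT2G39850 had folds of 17.6 and 14.1, with cold arrays between 2.87 and 4.22. In both genes the genotypes overlapped at 4 °C.

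AT2G29310 separated the genotypes at 4 °C. It read 7.97, 7.50 and 8.51 in wild type and 8.73, 7.99 and 8.32 in sid2-1 at 22 °C. At 4 °C it read 4.04, 3.36 and 3.58 in wild type and 5.19, 5.26 and 5.14 in sid2-1. The fold was 20.2 in wild type and 8.88 in sid2-1, and the sid2-1 arrays at 4 °C lay close to each other, above all 3 wild-type arrays.

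AT4G23670 was bright at 22 °C, with 10.88, 10.60 and 11.26 in wild type and 10.89, 10.78 and 11.42 in sid2-1. At 4 °C it read 7.14, 5.37 and 6.96 in wild type and 7.49, 9.14 and 8.12 in sid2-1. The second array was the lowest of the wild-type group and the highest of the sid2-1 group. The folds were 21.5 in wild type and 6.87 in sid2-1.

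AT3G48460 read 8.98, 7.55 and 9.21 in wild type and 8.76, 8.20 and 8.68 in sid2-1 at 22 °C. At 4 °C it read 4.54, 3.34 and 4.50 in wild type and 6.07, 6.14 and 5.40 in sid2-1. All sid2-1 arrays at 4 °C were above all wild-type arrays at 4 °C, and the differences were -4.45 ± 0.49 and -2.68 ± 0.49.

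AT3G28270 had the widest spread of these genes in cold wild type. It read 9.74, 10.08 and 10.52 in wild type at 22 °C and 7.35, 3.77 and 5.48 at 4 °C. In sid2-1 it read 10.15, 9.21 and 10.38 at 22 °C and 7.58, 8.01 and 6.97 at 4 °C. The first wild-type array at 4 °C overlapped the sid2-1 arrays, and the other two did not. The differences were -4.58 ± 0.79 in wild type and -2.39 ± 0.79 in sid2-1.

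AT4G01390 was scattered at 22 °C. It read 6.17, 8.87 and 8.28 in wild type and 5.53, 8.51 and 8.40 in sid2-1. At 4 °C it read 3.42, 3.22 and 3.46 in wild type and 3.66, 5.87 and 4.99 in sid2-1. The second sid2-1 array at 4 °C lay above the first sid2-1 array at 22 °C, which is the overlap counted above.

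AT1G62510 varied widely between replicates. It read 8.21, 6.41 and 9.34 in wild type and 8.77, 6.59 and 8.31 in sid2-1 at 22 °C. At 4 °C it read 4.43, 2.77 and 5.63 in wild type and 4.43, 3.26 and 5.6 in sid2-1. The second array was the lowest in all 4 groups, and the differences of -3.71 and -3.46 carry an SE of 1.04.

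AT5G59130 and AT4G33666 complete the 12. AT5G59130 read 7.51 to 8.51 on the 6 arrays at 22 °C and 3.82 to 5.07 at 4 °C, with folds of 15.4 in wild type and 8.84 in sid2-1. AT4G33666 read 9.17 to 11.09 at 22 °C and 5.89 to 7.82 at 4 °C, with folds of 8.67 and 9.76. Neither gene had cold and warm arrays that overlapped.

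**Figure D4:**
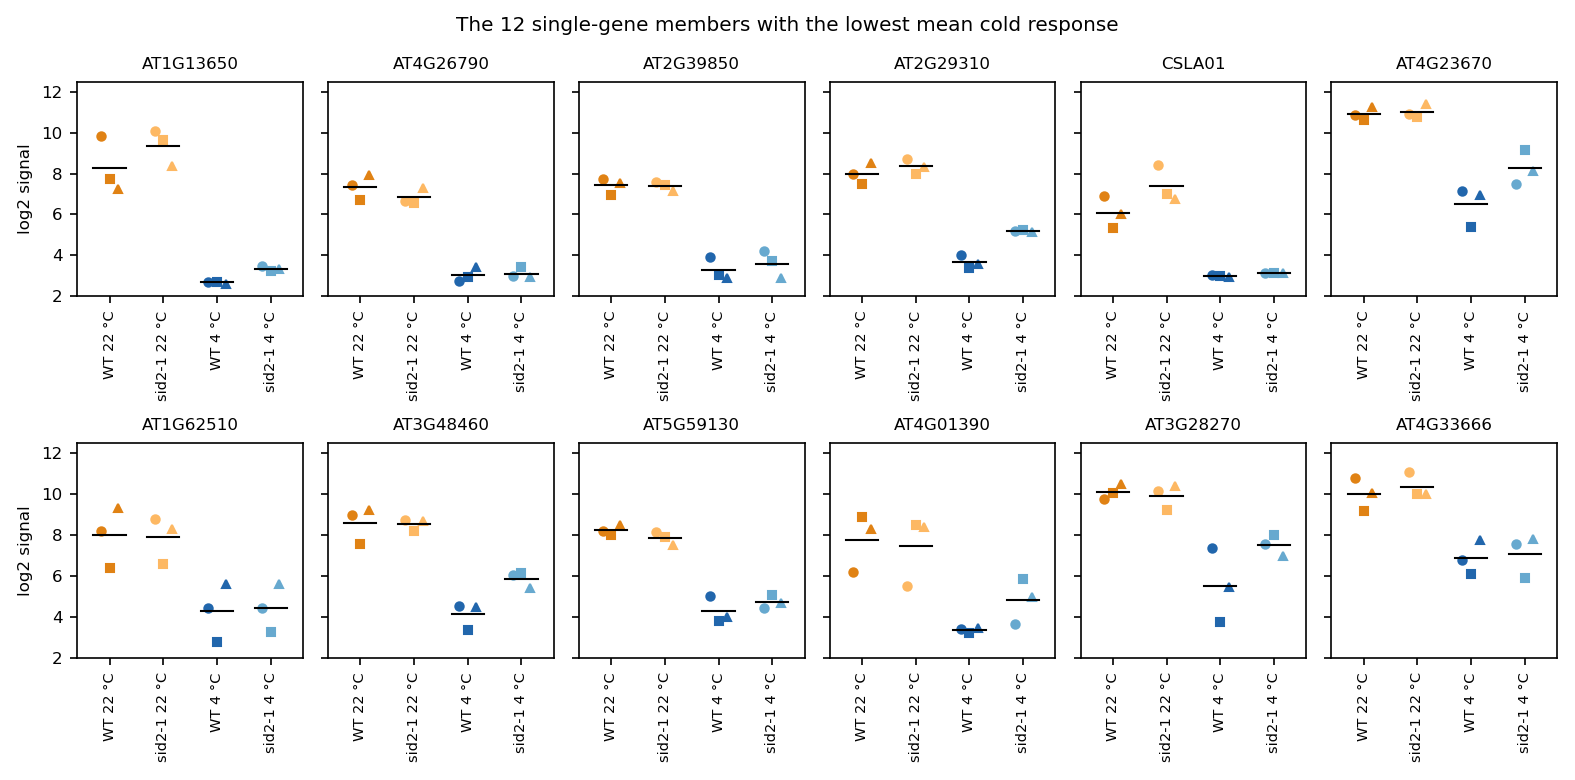
Log2 signal on each array for the 12 single-gene members with the lowest mean of both differences, by group, with circles, squares and triangles for replicates 1, 2 and 3 and lines at the group mean. AT2G29310, AT3G48460, AT1G13650, AT4G23670, CSLA01 and AT4G01390 show all 3 sid2-1 arrays above all 3 wild-type arrays at 4 °C, while AT1G13650, AT4G26790 and CSLA01 end near 3 or below in wild type.

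For 7 members the mean at 4 °C was under 3 in wild type, and for 5 it was under 3 in sid2-1. A set of 102 members kept a mean of 4 or more at 4 °C in both genotypes, and their median difference was -2.91 in wild type and -2.41 in sid2-1. These medians lie below -2 by the rule itself, and they describe the members whose cold values stayed above the dim range.

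There were 11 single-gene members with a mean of 10 or more in wild type at 22 °C, described here for their brightness after their values were seen. Their differences ran from -4.58 to -2.5 in wild type and from -3.29 to -2.1 in sid2-1, and their means at 4 °C from 5.53 to 9.03 in wild type. The brightest was AT1G67865, with 11.59, 11.80 and 12.53 in wild type and 12.34, 11.02 and 12.13 in sid2-1 at 22 °C. At 4 °C it read 9.14, 8.59 and 9.35 in wild type and 8.26, 8.84 and 9.31 in sid2-1. It remained a high signal in the cold, 7.71 times lower than at 22 °C in wild type and 8.15 times lower in sid2-1.

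AT1G67870, the next gene along the chromosome, ran close to it. It read 11.17, 11.42 and 11.61 in wild type and 11.30, 11.30 and 11.27 in sid2-1 at 22 °C. At 4 °C it read 8.76, 8.83 and 9.10 in wild type and 8.30, 8.67 and 9.39 in sid2-1. The fold was 5.67 in each genotype.

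AT1G75280 read 10.51, 10.65 and 10.73 in wild type and 10.48, 9.98 and 10.16 in sid2-1 at 22 °C. At 4 °C it read 7.55, 6.92 and 7.30 in wild type and 7.44, 7.68 and 7.87 in sid2-1. Its folds were 10.4 and 5.83, with an SE of 0.19 on the log2 scale. AT4G00780 had folds of 8.96 and 6.53, and AT1G70820 had folds of 7.53 and 4.72. All 3 genes had no overlap between cold and warm arrays in either genotype.

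Of the 65 member loci, 2 pairs are direct neighbours in the order of protein-coding genes of the TAIR10.1 assembly, AT1G67865 with AT1G67870 and AT4G33660 with AT4G33666. AT5G02180 and AT5G02230 have 4 genes between them. AT4G33660 read 9.11, 8.99 and 9.07 in wild type at 22 °C and 6.03, 4.68 and 5.71 at 4 °C. Its differences were -3.58 in wild type and -2.80 in sid2-1, beside -3.12 and -3.29 for AT4G33666.

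The other 33 single-gene members, AT4G33660 among them, were moderate in level and in difference. Their group means ran from 5.61 to 9.87 in wild type at 22 °C and from 3.14 to 7.46 at 4 °C. Differences ran from -3.61 to -2.11 in wild type, with a median of -2.63, and from -3.07 to -2.03 in sid2-1, with a median of -2.42. One single-gene member, AT2G07707, is read by a probe set of a type that can match several transcripts, so its identity is uncertain.

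The 6 probe sets of several genes had differences from -3.94 to -2.38 in wild type and from -4.17 to -2.32 in sid2-1. AT4G24350 has a probe set of its own among the members and is also listed on 1 of these 6. The 69 probe sets with no gene here had differences from -7.48 to -2.03 and from -6.38 to -2.0. The lowest of all tested probe sets in both genotypes is 1 of them, 249774_at. It read 11.19, 10.65 and 11.79 in wild type and 10.84, 10.72 and 11.09 in sid2-1 at 22 °C. At 4 °C it read 3.98, 3.22 and 3.98 in wild type and 4.34, 4.66 and 4.50 in sid2-1, so the probe set furthest below its level at 22 °C cannot be named here.

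The limit of -2 cut through a continuous range. Just inside it were AT1G55360 (-2.59 in wild type and -2.02 in sid2-1), AT1G73040 (-2.34 and -2.02) and AT2G32560 (-2.02 and -2.24). Just outside were AT1G21350 (-2.33 and -1.997), AT1G64360 (-2.18 and -1.98) and AT3G21950 (-1.98 and -2.24). The higher of both differences lay above -2.1 for 16 members and between -2 and -1.9 for 30 probe sets outside the set.

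Gene lists of growth, metabolism and cell types show what surrounds the members. Of 259 genes in 20 lists, 49 had a named probe set, and 3 lists held a member. Outside the members, cold calls used an adjusted p under 0.05 from limma over all tested probe sets, which called 13.0% of probe sets in wild type (6.19% lower) and 6.28% in sid2-1 (3.08% lower). The cell wall list held CSLA01 as its only member. Of its 8 other measured genes, the expansins EXPA4 and EXPB3, which loosen walls during growth, fell in wild type. EXPA4 fell by 1.98 (SE 0.32, adjusted p = 0.0058, limma), and EXPB3 fell by 2.22 (SE 0.49, adjusted p = 0.0196). None of the 8 passed the test in sid2-1. The median over the 9 measured genes was -0.68 in wild type and 0.08 in sid2-1, so CSLA01 does not stand for the whole list. Some of the 9 had little room to fall, such as XTH18 (2.2) and XTH16 (2.68), given as wild-type means at 22 °C. GH9C2, TBL26 and TBL40 are not in this list, so its medians do not bear on them.

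The list of genes that respond to sugar starvation and darkness held AT2G32150, which read 9.15, 8.80 and 9.60 in wild type at 22 °C and 6.10, 5.23 and 5.96 at 4 °C. In sid2-1 it read 9.09, 8.99 and 9.13 at 22 °C and 5.02, 5.94 and 7.33 at 4 °C. Its folds were 10.7 and 7.85. The 6 other measured genes of the list moved in both directions. AT3G15450 rose in wild type by 3.16 (SE 0.82, limma adjusted p = 0.0386), AT1G68440 fell in sid2-1 by 1.18 (SE 0.23, adjusted p = 0.0214), and the rest did not pass the test.

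No member belongs to the lists of glucosinolate synthesis and transport or of sulfur assimilation, yet several of their genes fell. Of 6 measured glucosinolate genes, 4 fell in wild type (BCAT4, UGT74B1, AT2G31790 and GTR1) and UGT74B1 fell in sid2-1. UGT74B1, the glucosyltransferase of the glucosinolate core, fell by 2.50 (SE 0.35, limma adjusted p = 0.003) in wild type and by 1.81 (adjusted p = 0.0205) in sid2-1, short of the members' limit. Of 3 measured sulfur genes, the ATP sulfurylase APS3 and the sulfite reductase SIR fell in both genotypes, APS3 by 2.64 in wild type and by 1.87 in sid2-1. No member was in the lists of starch breakdown (2 measured genes), clock (1), senescence (1), auxin (2), photosynthesis (4) and pigment synthesis (4). The other marker lists, with 0 to 2 measured genes each, held none either. With so few genes measured, this says little about those processes. PGRL1B, LHCB4.3 and EXPA8 met the rule and were left out by name, so they could not appear here.

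At 22 °C no member passed the test between the genotypes. The median of sid2-1 minus wild type was 0.03, and 75 of 140 members were higher in sid2-1. At an adjusted p under 0.05 (limma) 0 members were called, where 0.00440% of all probe sets were, and 4 members (2.86%) had an unadjusted p under 0.05, against 3.03% of all. With the replicate number as a block within each temperature, 12 members (8.57%) had an unadjusted p under 0.05, against 4.63% of all, again with none called. The arrays are those that chose the members, although the rule did not use this contrast. CSLA01 had a difference of 1.33 ± 0.47 with an adjusted p of 1.0, its sid2-1 arrays (6.78 to 8.44) overlapping the wild-type arrays (5.34 to 6.88).

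At 4 °C most members had a higher mean in sid2-1 than in wild type, although no single member passed the test. The same arrays chose the members, and members on 1 array are not independent, so the counts are a description. The median of sid2-1 minus wild type was 0.31. The SDs of the members' median over the replicate arrays of each group, combined as the root of their summed squares, gave 0.36. This is the spread of a difference between 1 array of each group, and not the SE of a difference between groups of 3. In all, 107 of 140 members (76.4%) were higher in sid2-1, against 45.7% of all tested probe sets and 54.0% of the probe sets with a mean of 4 or more. No member passed an adjusted p under 0.05 (limma), where 0.615% of all probe sets did (3 higher in sid2-1 and 137 lower). With that replicate block, 27 probe sets passed in place of 140, again with no member. An unadjusted p under 0.05 was reached by 26 members (18.6%), against 9.83% of all, and 25 of the 26 were higher in sid2-1, a direction with 4.30% of all. With only probe sets of mean 4 or more in the fit, the share was 22.5% of 138 members, against 14.2% of all those probe sets. All 3 sid2-1 arrays lay above all 3 wild-type arrays for 26 members (18.6%), against 4.88% of all tested probe sets, and below them for 2 members, against 6.09%.

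A shift in the same direction was present outside the members. Among 471 other probe sets lower by 1 to 2 in both genotypes, the median of sid2-1 minus wild type at 4 °C was 0.16, and 71.3% were higher in sid2-1. The second wild-type array at 4 °C, the lowest of its group for most members, carried part of the shift. Without it the members' median was 0.21, and 96 of 140 were higher in sid2-1. An unadjusted p under 0.05 (limma) was then reached by 12 members (8.57%), against 5.73% of all tested probe sets.

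AT2G29310 had the lowest adjusted p of the members at 4 °C, 0.0625 for a difference of 1.54 ± 0.28 (limma, higher in 3 of 3 arrays), with a range of 0.0133 to 0.266 over the alternatives. The adjusted p was 0.0133 when only probe sets with a mean of 4 or more were tested and 0.0433 when arrays were centred on their median. AT4G23670 was higher by 1.76 (adjusted p = 0.313), AT3G48460 by 1.74 (0.259) and PMEAMT by 0.85 (0.384), each with no overlap between the genotypes at 4 °C. GH9C2 was higher by 1.4 (adjusted p = 0.284), its lowest sid2-1 array and highest wild-type array both at 5.09, and TBL26 by 1.46 (adjusted p = 0.528) with an overlap. TBL40, TRY and CSLA01 were within 0.15 of wild type in either direction.

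The differences of the members in both genotypes can be set side by side through the interaction, but both of its parts enter the rule, which holds each at -2 or lower. The values over the members are therefore a description, and probe sets lower in wild type alone could not be members. The median of the interaction (the 4 °C minus 22 °C difference in sid2-1 minus that in wild type) was 0.28, with the difference nearer to 0 in sid2-1 for 99 members (70.7%) and in wild type for 40. The interaction was above 0 for 48.7% of all tested probe sets, 52.6% of those with a mean of 4 or more and 67.9% of the 471 lower by 1 to 2. Without the second wild-type array at 4 °C the members' median was 0.175. In that fit 2 members (1.43%) had an unadjusted p under 0.05 (limma), against 3.37% of all tested probe sets. No member passed an adjusted p under 0.05 (limma), where 0.0615% of all did (14, and 0 with that block), and 7 members (5.0%) had an unadjusted p under 0.05, against 4.08% of all. With the block the count was 12 members (8.57%), against 6.16% of all. The lowest adjusted p of a member was 0.932, for AT1G75280, with an interaction of 0.83 ± 0.26.

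The largest interactions had wide errors. AT3G28270 had 2.19 ± 1.12 (95% interval -0.35 to 4.73), AT3G48460 had 1.78 ± 0.69 (0.21 to 3.35), AT4G01390 had 1.77 ± 1.38 (-1.37 to 4.90) and TBL26 had 1.70 ± 0.94 (-0.43 to 3.83), each with an adjusted p of 0.936 from limma. The value of AT3G28270 was 1.31 without the second and 3.10 without the first wild-type array at 4 °C, and that of AT4G01390 was 0.79 without the first sid2-1 array at 22 °C. CSLA01 went the other way with -1.19 ± 0.66. The smallest were those of AT1G67870 (0.00, interval -0.79 to 0.79), AT2G24550 (0.00, interval -1.29 to 1.28), TRY (0.00, interval -1.14 to 1.13) and AT5G65380 (0.03, interval -1.05 to 1.11). These intervals leave room for a difference in cold response of more than 2-fold between genotypes in 3 of these 4 genes. AT2G24550 read 7.21, 7.29 and 6.09 in wild type at 22 °C and 3.83, 4.08 and 3.98 at 4 °C, and AT5G65380 read 7.66, 8.26 and 8.35 and then 5.91, 6.37 and 5.01.

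**Figure D5:**
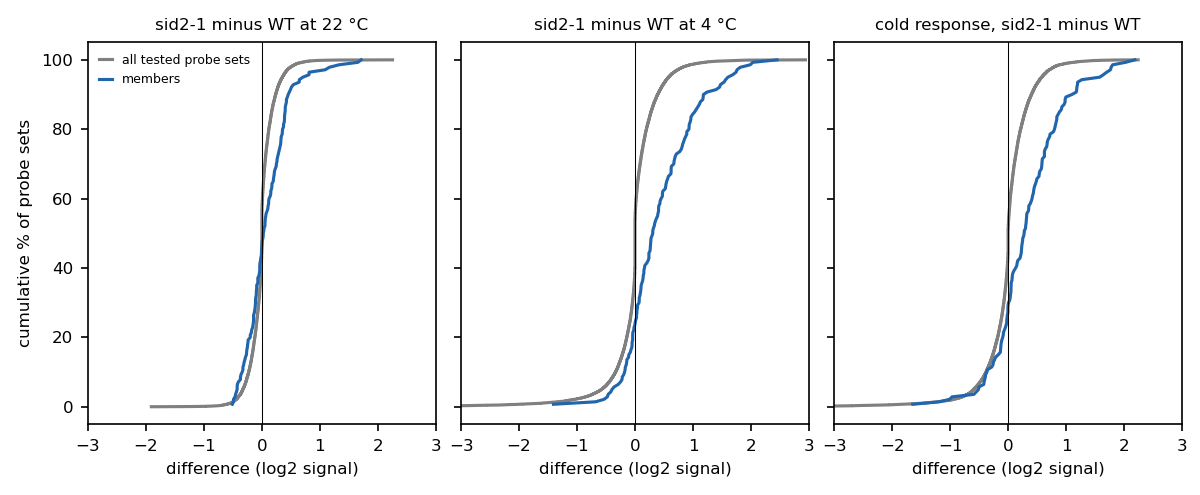
Cumulative percent of probe sets against the difference in log2 signal, for the 140 members (blue) and all tested probe sets (grey), for sid2-1 minus wild type at 22 °C, at 4 °C, and for the cold response of sid2-1 minus that of wild type. The members' medians are 0.03, 0.31 and 0.28, and a few probe sets outside -3 to 3 are not shown.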

How the data were processed

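The authors deposited 1 log2 signal per probe set and array. The submitters' processing notes name GCRMA and limma without versions. GCRMA corrects background from probe sequence and summarises the probes of a probe set. Which arrays were normalized together is not given in the sources used here. The table holds 22810 probe sets, and 64 controls were left out. Precision is limited by the number of arrays. Probe sets were named through the platform annotation, which gives 1 gene to 13513, several to 503 and none here to 8730. The names come from TAIR10.1, whose gene order was used to find neighbouring member loci and whose coordinates are not given.

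The members, the gene lists and the tests were chosen with earlier results of these data known. Group means gave the members. Genotype and interaction contrasts came from limma 3.58.1 (R 4.3.3; lmFit, contrasts.fit, eBayes), 1 mean per group over all 12 arrays, two-sided, with Benjamini-Hochberg adjustment over 22746 probe sets and a threshold of 0.05. The fit had 8 residual and 0.609 prior degrees of freedom and was tested on simulated data. The simulated noise was independent between arrays and had no lowest value, unlike these data. That test therefore does not cover sharing between same-numbered arrays or values at the lowest level. SEs are limma's, from the variance shared by the 4 groups. Tables and plots used Python 3.11.15, pandas 2.3.3 and matplotlib 3.10.9. Named genes were the 12 single-gene members with the lowest mean difference, the 4 largest and 4 smallest interactions, members of the lists and of word-based families, the 3 on each side of the limit, and called list genes. Word-based families were not counted, since 15.4% of single-gene members carry a descriptive name.

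Replicate numbers are shared by the groups. Deviations from group means, over 12426 probe sets, correlated at 0.284 to 0.467 between same-numbered arrays of both genotypes at 22 °C and at 0.211 to 0.252 at 4 °C. Across temperatures such pairs correlated at -0.0476 to 0.371, some over 0.1 and some near 0. Sharing across temperatures was thus uneven and not absent. The replicate block within each temperature pairs the genotypes only. With that replicate block, 27 probe sets were called between genotypes at 4 °C in place of 140, 0 at 22 °C in place of 1, and 0 in the interaction in place of 14, with 0 members in each. Other alternatives changed the rule's limit, used medians, centred the arrays, left out dim probe sets, fitted only the groups compared or left out arrays.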

Additional observations from a re-analysis of the deposited data

How the results depend on the processing

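The number of members was 331 at a limit of -1.5 and 69 at -2.5, and with group medians, a filter on dim probe sets or centred arrays it stayed within 1.5 times of 140. Group medians shared 119 members with the main choice and added 31. Leaving out arrays gave 131 to 183, and leaving out replicate 2 shared 126 and added 57. With only the groups compared in the fit, calls over all probe sets were 1407 (cold in wild type), 376 (cold in sid2-1), 2 (genotype at 22 °C) and 0 (genotype at 4 °C). With only probe sets of mean 4 or more they were 2244 (cold in sid2-1), 0 (genotype at 22 °C), 211 (genotype at 4 °C) and 30 (interaction). With arrays centred, genotype calls at 22 °C were 0. Members called between genotypes at 4 °C numbered 1 under the mean filter and 1 with centred arrays, AT2G29310 in both. With the replicate block over all groups, calls were 0 for genotype at 22 °C and 3 for the interaction. With the replicate block within each temperature, chosen after seeing the data, they were 0, 27 (genotype at 4 °C) and 0. No block changed a member's call in the genotype contrasts or the interaction. Leaving out 1 array gave 1865 to 2859 calls for cold in wild type (lowest without its second array at 4 °C). For cold in sid2-1 it gave 788 to 1457 (lowest without its first array at 22 °C). The calls were 0 to 20 for genotype at 22 °C, 84 to 281 for genotype at 4 °C and 0 to 70 for the interaction. Between genotypes at 4 °C, 0 to 1 member was called (1 without the third wild-type or the first sid2-1 array at 4 °C). The member called in those fits was not AT2G29310, whose adjusted p there was 0.103 and 0.179 (limma). The members' median ran from -0.055 to 0.191 for genotype at 22 °C (below 0 without the second wild-type array at 22 °C), from 0.21 to 0.43 at 4 °C and from 0.175 to 0.44 for the interaction. The interactions near 0 changed sign without single arrays, from -0.37 to 0.38 for AT2G24550, from -0.40 to 0.28 for TRY and from -0.35 to 0.33 for AT5G65380. The cause was not tested in any of these. The search for promoter motifs was not run. Probe sets near 2.2 limit what differences at low signal show.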

Other observations

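Choosing the set again without 1 replicate number and reading the left-out arrays gave values that the choice did not use, after earlier results were known. Without replicate 1, 132 probe sets were chosen, with medians of -2.69 in wild type and -2.69 in sid2-1 on the left-out arrays, and 98 were at -2 or lower in both. Without replicate 2, 183 were chosen, with medians of -2.79 and -2.03, and 79 were at -2 or lower in both. Without replicate 3, 137 were chosen, with medians of -2.82 and -2.33, and 79 were at -2 or lower in both. The share of all tested probe sets at that limit on the left-out arrays was not computed. Left-out arrays of the same number are also not independent between the genotypes, so these counts are a description.

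Several members were lowest in the same replicate number in all 4 groups. Replicate 2 was the lowest in all 4 groups for 8 members (5.71%), against 1.27% of all tested probe sets, among them AT1G62510, AT2G03310, AT4G33666, AT5G03230 and AT5G12110. For replicate 1 this held for 2 members, AT2G23840 and AT3G52360, against 2.36% of all, and for replicate 3 for 0 members, against 1.01%. This count was chosen after the data were seen.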
